A study of Mus musculus with 9 samples.

Results

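Oxidative phosphorylation in the mouse colon was described through the genes of complexes I, III, IV and V. Members were the protein-coding genes of the GENCODE annotation whose symbols start with Ndufa, Ndufb, Ndufc, Ndufs or Ndufv, Uqcr, Cox4 to Cox8 with a subunit letter, or Atp5, together with Cyc1 and the mitochondrial genes mt-Nd, mt-Co, mt-Cytb and mt-Atp. This rule found 104 genes, 91 of the nuclear and 13 of the mitochondrial genome. Of these, 97 had a count in the files, among 22262 genes with a count in any library. Grouped by symbol, complex I held 53 of the 104, complex III held 10, complex IV held 21 and complex V held 20. Ndufa4 and Ndufa4l2 were thereby counted in complex I. The 7 members with no count were mt-Atp8, the tissue-type isoforms Ndufa4l2, Cox4i2, Cox6a2, Cox7b2 and Cox8c, and a duplicate entry of Atp5o.

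The animals were female C57BL/6N wild-type mice aged 12 months. WT_SE mice 1, 2, 3 and 5 (n = 4) lived in the standard environment, in small groups with chow and water. WT_EE mice 1 to 5 (n = 5) lived from weaning in the enriched environment, where a larger group shared a bigger cage with objects, tunnels and running wheels. A piece of the upper colon, flushed of feces, gave 1 library per mouse, made by 3′ messenger RNA sequencing with molecular identifiers, so that a count stands for a tagged molecule and does not grow with transcript length. The labels do not say which mice shared a cage, and p-values measure the spread between these mice. The comparison asks how the environment changed gene expression in the wild-type colon.

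The respiratory chain passes electrons from NADH through complex I, ubiquinone, complex III and cytochrome c to complex IV, which reduces oxygen. Complexes I, III and IV pump protons out of the mitochondrial matrix, and complex V, the ATP synthase, lets them return and makes ATP. The mitochondrial genome encodes the hydrophobic core of each of these complexes, and nuclear genes encode the catalytic iron-sulfur and flavin subunits of complex I and the many accessory subunits. Colonocytes are known to rely on mitochondrial oxidation, above all of butyrate from gut bacteria.

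Library totals were 299062 to 383401 counts in WT_SE and 295535 to 454043 counts in WT_EE, and a floor of 3 counts marks the lower limit of detection. All 8 epithelial markers (Epcam, Cdh1, Vil1 and others) had counts, with a summed level of 1966 to 2416 normalized CPM in WT_SE and 2059 to 2595 in WT_EE, where normalized CPM (CPM in what follows) are counts relative to a library size scaled by TMM, which makes libraries of unequal totals comparable. All 8 smooth muscle markers had counts as well, and 4 of them had an unadjusted p under 0.05 between the environments, all higher in WT_EE. Of all genes tested, 4.31% were higher in WT_EE by this limit. The summed level of the smooth muscle markers was 3434 CPM in WT_EE mouse 2 and 3324 CPM in WT_EE mouse 4, against 1827 to 2386 CPM in the other 7 mice. The libraries were therefore pieces of whole colon wall, in which fewer cells of a type and less RNA per cell cannot be told apart. The 8 adipocyte markers summed to 1154 CPM in WT_SE mouse 1 and to between 86.3 and 634 CPM in the other 8 mice. Of 3 brown adipocyte markers, Ucp1 and Elovl3 had no count, and the 6 striated muscle markers summed to 43.3 CPM at most. Of 3 B cell markers with a count, summing to 33.9 CPM at most, 2 had an unadjusted p under 0.05, both lower in WT_EE. By the same limit, 1 of 6 goblet cell markers was higher and 1 lower. The epithelial and adipocyte lists had 1 marker lower each, and the absorptive colonocyte list 1 higher. The macrophage, pericyte, brown adipocyte and striated muscle lists had none.

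Members formed the upper part of the count range. Of the 84 nuclear-encoded members that passed the filter (at least 4 CPM in at least 1 library), 26 or 31.0% had a mean of at least 100 counts per library, against 2.72% of the 17441 genes tested. No nuclear-encoded member had a mean above 148 counts. At this level counts grew less than the library total did. WT_EE mouse 1 had 1.52 times the total of WT_SE mouse 3, but the summed counts of these 26 members rose only from 2615 to 3192, or 1.22 times. The 13 nuclear-encoded members of 20 to 50 counts went the other way, from 402 to 698 counts, or 1.74 times. Over all 9 libraries the slope of log summed counts on log library total was 0.46 for the 26 most counted members and 1.89 for the 13 members of 20 to 50 counts. All genes tested gave 0.47 and 1.26 in the same count classes. Over the 9 libraries the summed CPM of the most counted members was therefore lower at higher totals, although WT_SE mouse 5 was above the shallower WT_SE mouse 2 and WT_EE mouse 4 above the shallower WT_EE mouse 2. Counts of members with 100 counts or more may thus not be proportional to molecules, and their fold changes may be compressed. What part this had in the results was not tested.

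**Figure D1:**
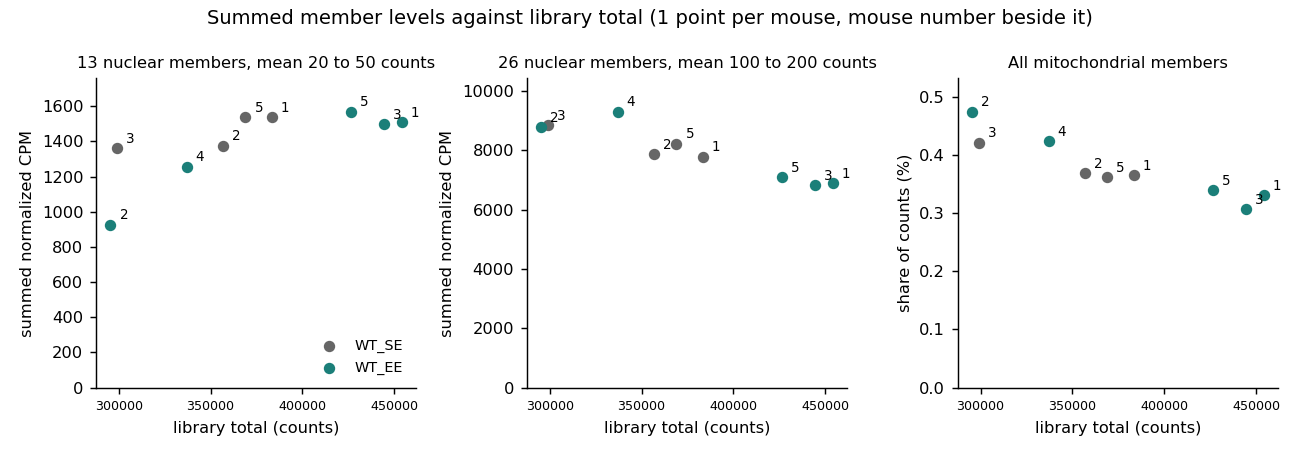
Summed levels against library total in counts, with 1 point per mouse and the mouse number beside it, for 13 nuclear-encoded members of 20 to 50 counts (left, normalized CPM), 26 of 100 to 200 counts (middle, normalized CPM) and all mitochondrially encoded members (right, percent of all counts). The 26 members sum to 9312 CPM in WT_EE mouse 4 and 6833 CPM in WT_EE mouse 3, and WT_EE mouse 2 is the lowest for the 13 members with 927 CPM.

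Between WT_EE and WT_SE, 4 of the 84 nuclear-encoded members that passed the filter had an unadjusted p under 0.05 in edgeR's quasi-likelihood test, and all 4 were lower in WT_EE. Among all genes tested 7.65% were called by the same rule in either direction, and 3.34% of all genes tested were called as lower. The members' 4.76%, all lower, was below the former share and above the latter. No member had an adjusted p under 0.05 (edgeR with Benjamini-Hochberg adjustment over 17441 genes), against 0.0401% of all genes, and DESeq2 called 3 nuclear-encoded members by its unadjusted p, or 3.57% against 3.69% of all genes in that fit. The median log2 fold change (WT_EE minus WT_SE) of the nuclear-encoded members was -0.11, and that of all genes tested 0.01. It was negative for 60 of the 84 members, or 71.4%, against 48.9% of all genes. In the class of 100 to 200 counts the log2 fold change was negative for 61.7% of all 454 genes and 76.9% of the 26 members. The class of 50 to 80 counts went the other way, with 58.3% of all genes and 55.0% of the 20 members. For all genes and members the shares were 46.8% and 81.8% under 20 counts and 47.7% and 69.2% at 20 to 50. At 80 to 100 counts they were 65.0% and 78.6%. Taken mouse by mouse, the median log2 deviation of the 84 members from their mean over 9 mice was 0.09, -0.04, 0.15 and 0.08 in WT_SE mice 1, 2, 3 and 5 and -0.06, -0.05, -0.09, 0.10 and -0.03 in WT_EE mice 1 to 5. WT_SE mouse 2 and WT_EE mouse 4 crossed the other environment's values. As a share of all counts, nuclear-encoded members made up 1.72%, 1.62%, 1.79% and 1.72% in WT_SE mice 1, 2, 3 and 5, and 1.58%, 1.602%, 1.57%, 1.71% and 1.61% in WT_EE mice 1 to 5. The environments overlapped in this share, with means of 1.71% ± 0.0678 (SD, n = 4) and 1.61% ± 0.0574 (SD, n = 5).

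**Figure D2:**
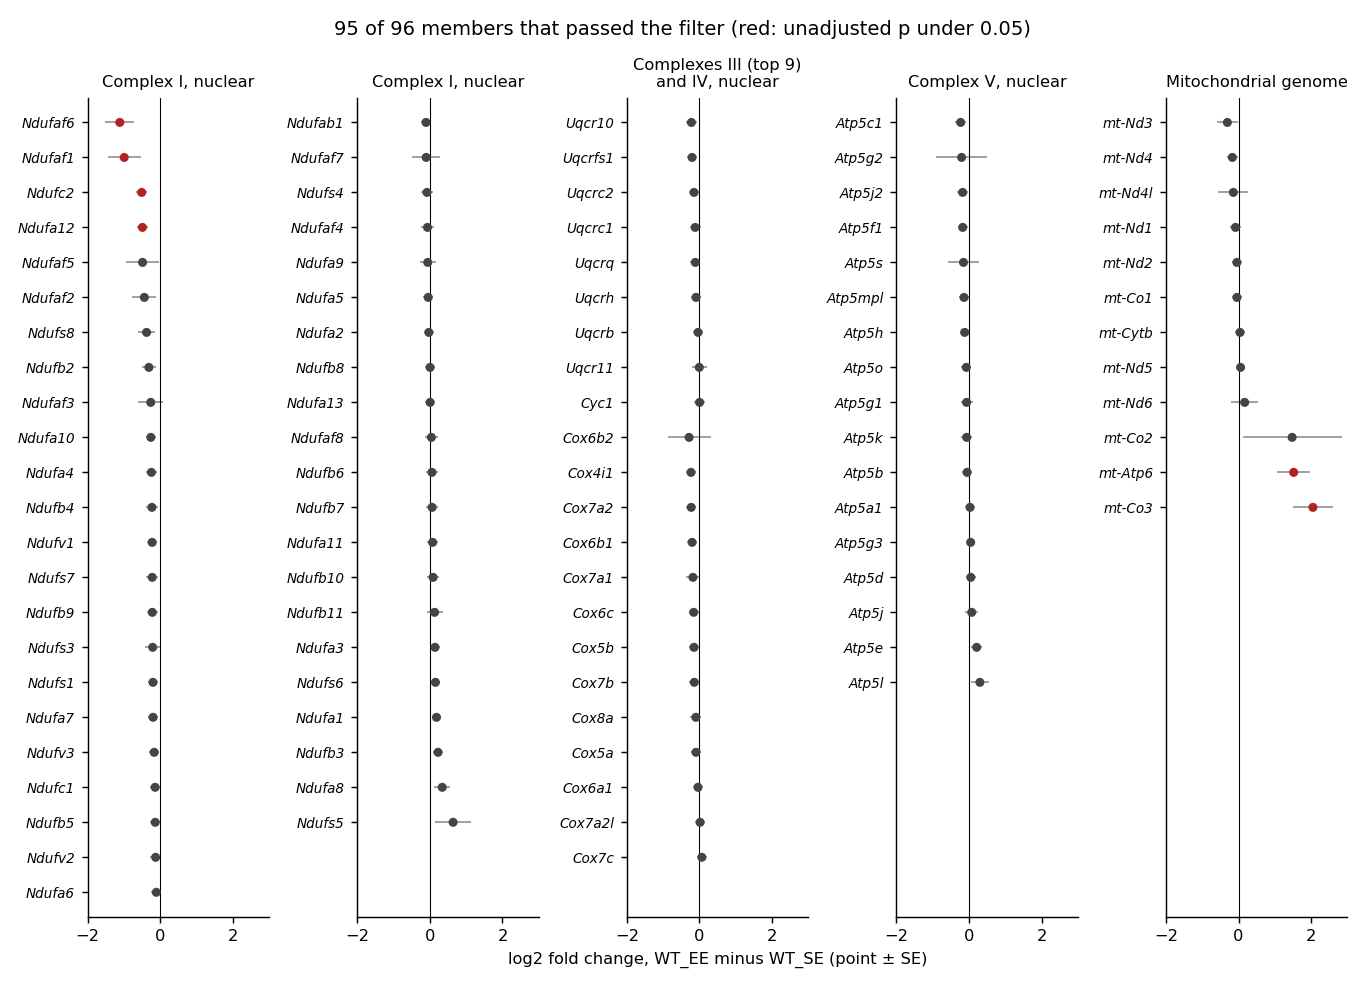
Log2 fold change (WT_EE minus WT_SE, horizontal axis) of 95 of the 96 members that passed the filter, with standard errors as lines and an unadjusted p under 0.05 in red. The red points on the left are Ndufaf6, Ndufaf1, Ndufc2 and Ndufa12, those on the right are mt-Atp6 and mt-Co3, and most nuclear-encoded members lie slightly left of 0.

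Complex I, the NADH dehydrogenase, held all 4 nuclear-encoded calls among 45 members tested, or 8.89%. Among all genes tested 7.65% were called, and 3.34% were called as lower. Without the assembly factors, 2 of 37 members of complex I were called, or 5.41%. Ndufc2, an accessory subunit of the membrane arm, maps to chromosome 7, bases 97400003 to 97407802, plus strand (GRCm38). Its normalized CPM was 277, 200.5, 230.0 and 232 in WT_SE mice 1, 2, 3 and 5 and 149, 188, 166, 136 and 185 in WT_EE mice 1 to 5. Every WT_EE mouse was below every WT_SE mouse. The log2 fold change was -0.51 (SE 0.147, p = 0.00122, adjusted p = 0.206, edgeR with Benjamini-Hochberg adjustment), and the two-sided exact permutation p was 0.00794, the smallest that 4 mice against 5 allow.

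Ndufa12, an accessory subunit of the peripheral arm, maps to chromosome 10, bases 94198720 to 94221443, plus strand. It had 209, 167, 196 and 232 CPM in the 4 WT_SE mice and 155, 129, 142, 118 and 164 CPM in the 5 WT_EE mice. Here too the environments did not overlap, although WT_SE mouse 2 and WT_EE mouse 5 nearly met. The log2 fold change was -0.49 (SE 0.151, p = 0.0024, adjusted p = 0.269), with the same exact permutation p of 0.00794. These were the only 2 members whose environments did not overlap. Among all genes tested 1.2% lay wholly lower and 1.38% wholly higher in WT_EE. Both genes kept an unadjusted p under 0.05 with each mouse left out in turn and under every other alternative, with log2 fold changes of -0.58 to -0.38 for Ndufc2 and -0.58 to -0.39 for Ndufa12. No exon of either gene overlaps another gene, and the last 400 bases of their transcripts share no stretch of 75 bases with another gene. The libraries of WT_SE mice 1 and 3 carry another name ending than the other 7, and within those 7 the calls of both genes held.

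**Figure D3:**
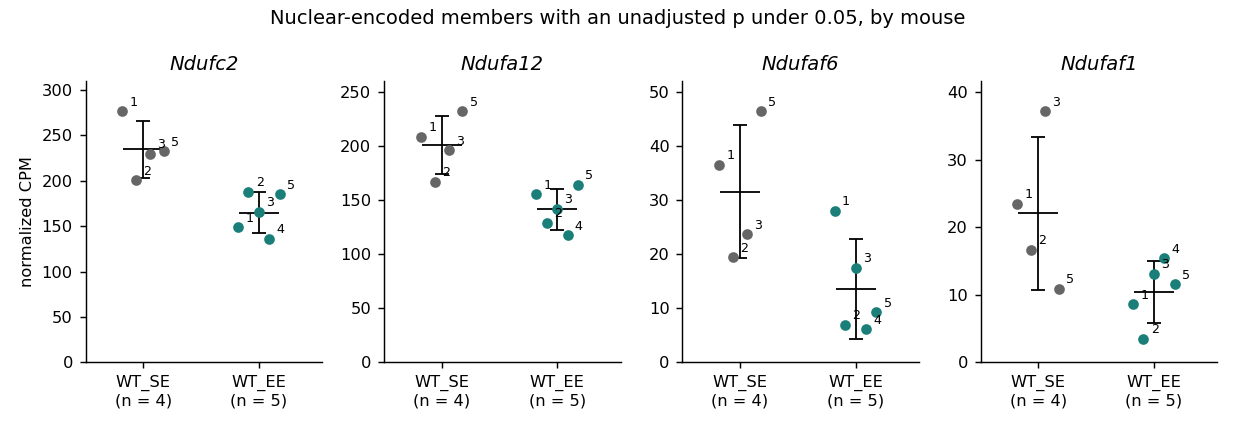
Normalized CPM (vertical axis) of the 4 nuclear-encoded members with an unadjusted p under 0.05, with 1 point per mouse, the mouse number beside it, and the mean and SD in black. The WT_SE and WT_EE points are apart for Ndufc2 and Ndufa12 and mixed for Ndufaf6 and Ndufaf1.

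The other subunits of complex I had log2 fold changes in both directions, and none was called. Over all 37 nuclear-encoded members of complex I except the assembly factors, Ndufc2 and Ndufa12 included, 23 log2 fold changes were negative, or 62.2%, with a median of -0.11. The share negative was 48.9% over all genes tested and 58.3% over those with a mean of 50 to 80 counts. Ndufa10, of the membrane arm, had 282, 303.5, 331 and 325 CPM in WT_SE against 259, 279, 245, 294 and 224 CPM in WT_EE (log2 fold change -0.26, edgeR adjusted p = 0.667). Only WT_EE mouse 4 overlapped WT_SE. Ndufb8, the most counted nuclear-encoded member of complex I with a mean of 113 counts, averaged 306 ± 28.4 CPM in the 4 WT_SE mice and 309.8 ± 52.4 CPM in the 5 WT_EE mice (± SD). Ndufa8, which faces the intermembrane space, had the largest log2 fold change of complex I among members with at least 10 counts, 0.34 (SE 0.214, edgeR adjusted p = 0.742). It ranged from 67.6 to 118 CPM in WT_SE and from 52.3 in WT_EE mouse 2 to 148 in WT_EE mouse 5, so that WT_EE enclosed WT_SE. Ndufs5 had a higher log2 fold change of 0.64 from 2 to 11 counts per mouse, and 42.9% of the 75-base stretches at its 3′ end also occur in BC002163, so its counts could be split.

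The 7 nuclear-encoded catalytic subunits of complex I carry its flavin and iron-sulfur clusters, which take electrons from NADH to ubiquinone. None passed the test. Ndufs8 had the lowest log2 fold change, -0.38 (SE 0.224, edgeR adjusted p = 0.723). Ndufs8 had 117.5, 94.7, 105 and 115 CPM in WT_SE and 90.7, 31.4, 98.4, 61.9 and 118 CPM in WT_EE. Its low values in WT_EE were those of mice 2 and 4, the 2 libraries highest in smooth muscle markers, and WT_EE mouse 5 was above every WT_SE mouse. Ndufv1, which binds NADH, had a log2 fold change of -0.22 and Ndufs1 of -0.20, with edgeR adjusted p = 0.742 and adjusted p = 0.752.

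Assembly factors build complex I and do not stay in it. The rule took 8 of them, and 2 of the 8 passed the test, both lower, with 7 of the 8 log2 fold changes negative and a median of -0.35. Among all genes tested, 3.34% were called as lower and 48.9% had a negative log2 fold change. Ndufaf6 (chromosome 4, bases 11051045 to 11076205, minus strand) had 14, 7, 7 and 17 counts in WT_SE and 13, 2, 8, 2 and 4 counts in WT_EE. WT_EE mice 1 and 3 lay within or close to the WT_SE values and the other 3 WT_EE mice below them. Its level averaged 31.5 ± 12.3 CPM in the 4 WT_SE mice and 13.6 ± 9.25 CPM in the 5 WT_EE mice (± SD). The log2 fold change was -1.12 (SE 0.403, edgeR p = 0.00871, adjusted p = 0.415), and the exact permutation p of the normalized CPM was 0.0556. The call was lost without WT_SE mouse 5, where the log2 fold change was -0.87, and without WT_EE mice 2 and 4, where it was -0.78. With the log2 library total as a covariate the log2 fold change was -1.70.

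Ndufaf1, an early factor for the membrane arm (chromosome 2, bases 119655446 to 119662827, minus strand), had 9, 6, 11 and 4 counts in WT_SE and 4, 1, 6, 5 and 5 counts in WT_EE. The environments overlapped, and WT_SE mouse 5 had no more CPM than WT_EE mice 3, 4 and 5. The log2 fold change was -0.99 (SE 0.456, edgeR p = 0.0356, adjusted p = 0.599), and the exact permutation p was again 0.0556. This call was lost under 11 of 24 alternatives, among them each of WT_SE mouse 1 (-0.95), WT_SE mouse 3 (-0.66), WT_EE mouse 1 (-0.91) and WT_EE mouse 2 (-0.83) left out. Within the 7 libraries of one name ending its log2 fold change was -0.35. Of the others, Ndufaf5, with log2 fold change -0.49, Ndufaf2, with -0.44, Ndufaf3, with -0.26, and Ndufaf7, with -0.10, had means of 5.78 to 10.7 counts and standard errors of 0.33 to 0.446. The well-counted factors were almost level, with log2 fold changes of -0.07 for Ndufaf4 and 0.04 for Ndufaf8. Summarized by mouse, the median log2 deviation of the 8 factors from their mean over 9 mice was -1.13 in WT_EE mouse 2 and -0.27 in WT_EE mouse 4, and lay between -0.00198 and 0.51 in the other 7 mice.

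Complex III, the cytochrome bc1 complex, passes electrons from ubiquinol to cytochrome c. None of its 9 nuclear-encoded members passed the test. The log2 fold changes ran from -0.22 for Uqcr10 (SE 0.141, edgeR adjusted p = 0.742) to 0.0048 for Cyc1 (SE 0.151, adjusted p = 0.995), and 8 of 9 were negative. Of all genes tested 48.9% were negative, and of those with a mean of 80 to 100 counts 65.0%. Uqcr10, a small subunit, had 295, 276, 328 and 328 CPM in WT_SE and 231, 299.8, 227, 331 and 238 CPM in WT_EE, so that WT_EE mice 2 and 4 were at the WT_SE level and the other 3 below it. Cyc1, the cytochrome c1 that hands electrons to cytochrome c, had 201, 142, 166 and 153 CPM in WT_SE and 168, 146, 153, 176 and 185 CPM in WT_EE. Uqcrfs1, the Rieske iron-sulfur subunit, averaged 277 ± 20.9 CPM in the 4 WT_SE mice and 241 ± 22.4 CPM in the 5 WT_EE mice (± SD). Its log2 fold change was -0.20 (edgeR adjusted p = 0.742). Uqcrh, the hinge subunit, was the most counted nuclear-encoded one with a mean of 115 counts, and had a log2 fold change of -0.09.

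Complex IV, cytochrome c oxidase, has subunits with a ubiquitous form and a second form typical of muscle, lung, testis or other tissues. The 7 ubiquitous forms, Cox4i1, Cox6a1, Cox6b1, Cox7a2, Cox7b, Cox8a and Ndufa4, had means of 61.3 to 119 counts. Because of its symbol, Ndufa4 was counted with complex I in the totals and medians by complex. All 7 had a negative log2 fold change, from -0.25 for Ndufa4 (SE 0.15, edgeR adjusted p = 0.742) to -0.04 for Cox6a1 (SE 0.151, adjusted p = 0.967), and none passed the test. Negative values made up 58.3%, 65.0% and 61.7% of all genes tested with means of 50 to 80, 80 to 100 and 100 to 200 counts. Cox4i1 had 271.5, 295, 365 and 339 CPM in WT_SE and 257, 286, 249, 318.5 and 245 CPM in WT_EE. The highest WT_SE mouse was mouse 3, the shallowest of its environment, and the 3 lowest WT_EE mice were the 3 deepest libraries. Cox7a2 had 298, 298, 348 and 317 CPM in WT_SE and 250.4, 303, 249, 300.0 and 249.9 CPM in WT_EE, where mice 2 and 4 were again the highest of WT_EE.

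Of the 8 tissue-type isoforms, 3 had a count. Cox7a1, the heart and muscle form of Cox7a, had 47, 34, 24 and 39 counts in WT_SE and 39, 30, 34, 28 and 45 counts in WT_EE. Its level averaged 101 ± 17.6 CPM in WT_SE against 90.8 ± 13.2 CPM in WT_EE (± SD over 4 and 5 mice), with a log2 fold change of -0.18 (SE 0.191, edgeR adjusted p = 0.874). Cox6b2, known from testis, had 1 to 6 counts per mouse. Cox8b, a heart and muscle form, had 1 count in WT_EE mouse 5 and 0 in the other 8 mice, which does not exceed the floor of 3 counts. At the other end of the spread, Cox7a2l varied least of the members that passed. It had 170, 153, 156 and 164 CPM in WT_SE and 168, 160.3, 159.6, 164 and 162 CPM in WT_EE, a coefficient of variation of 3.35% over 9 mice, with a log2 fold change of 0.02 (SE 0.144). Cox6b2 and Cox7c ended the range of log2 fold changes of complex IV at -0.29 (SE 0.59) and 0.07 (SE 0.141), and 48.8% of the 75-base stretches at the 3′ end of Cox7c also occur in other genes.

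Complex V joins the F1 part, where ATP is made, to the membrane part with its rotating ring of c subunits. None of its 17 nuclear-encoded members tested was called, and 11 had a negative log2 fold change, with a median of -0.07. These 11 were 64.7%, against 48.9% of all genes tested and 65.0% of those with a mean of 80 to 100 counts. In the F1 part, the catalytic subunit Atp5b had 277, 345, 325 and 303 CPM in WT_SE and 263, 394, 251, 349.5 and 266 CPM in WT_EE, so that WT_EE mice 2 and 4 were the highest and WT_EE mice 1, 3 and 5 the lowest of all 9. Atp5c1, the central stalk, was the lowest of complex V with a log2 fold change of -0.23 (SE 0.154, edgeR adjusted p = 0.7435). It had 240.1, 173, 264 and 238 CPM in WT_SE and 199, 160.3, 223, 148 and 229 CPM in WT_EE, where the same mice 2 and 4 were the lowest. Atp5l, of the membrane part, was the highest with 0.30 (SE 0.251, edgeR adjusted p = 0.819) at a mean of 19.7 counts. The c subunit itself comes from 3 genes. Atp5g3 was the most counted nuclear-encoded member of all with a mean of 148 counts, and averaged 392 ± 20.2 CPM in the 4 WT_SE mice and 406 ± 53.2 CPM in the 5 WT_EE mice (± SD). Atp5g1 had a mean of 63.1 counts and a log2 fold change of -0.07 (SE 0.166). Atp5g2 had 1 to 4 counts, too few to compare, and shares sequence with other genes at its 3′ end.

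The most members were called, among the alternatives run, without the 2 WT_EE libraries with the most smooth muscle RNA, those of mice 2 and 4. These had 295535 and 336967 counts, while the other 3 WT_EE libraries had 426436 to 454043 counts, more than the 383401 of the deepest WT_SE library. Without these 2 mice, an alternative chosen after seeing the data, 22 of the 84 nuclear-encoded members had an unadjusted p under 0.05, of which 21 were lower in WT_EE, or 26.2% against 7.6% of all genes in the same fit. No adjusted p was under 0.05. Of the 22, 15 had a mean of at least 100 counts, the class whose CPM was lower in deeper libraries. The strongest were Ndufc2 (log2 fold change -0.50, edgeR adjusted p = 0.223), Atp5j2 (-0.42, adjusted p = 0.228), Uqcr10 (-0.40, adjusted p = 0.275) and Cox5b (-0.37, adjusted p = 0.318), and Ndufa8 alone was higher (0.55, adjusted p = 0.424). With WT_EE mouse 4 alone left out, 8 nuclear-encoded members were called, all lower, or 9.52% against 6.4% of all genes in that fit. With WT_EE mouse 2 alone left out 6 were called, 5 lower and 1 higher, or 7.14% against 7.41% of all genes in that fit. No other pair of WT_EE mice was left out. With the log2 of the library total as a covariate in all 9 libraries, 12 were called, 10 lower and 2 higher (Atp5e and Ndufb3). That is 14.3% of the members against 9.84% of all genes in that fit. Of these 12, only Ndufc2 and Ndufa12 were also among the 22 called without WT_EE mice 2 and 4. Only Atp5e, which was higher, had a mean of at least 100 counts. In WT_EE the 2 libraries highest in smooth muscle markers were also the 2 shallowest. The parts of smooth muscle content and of depth in the members' values cannot be told apart here.

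**Figure D4:**
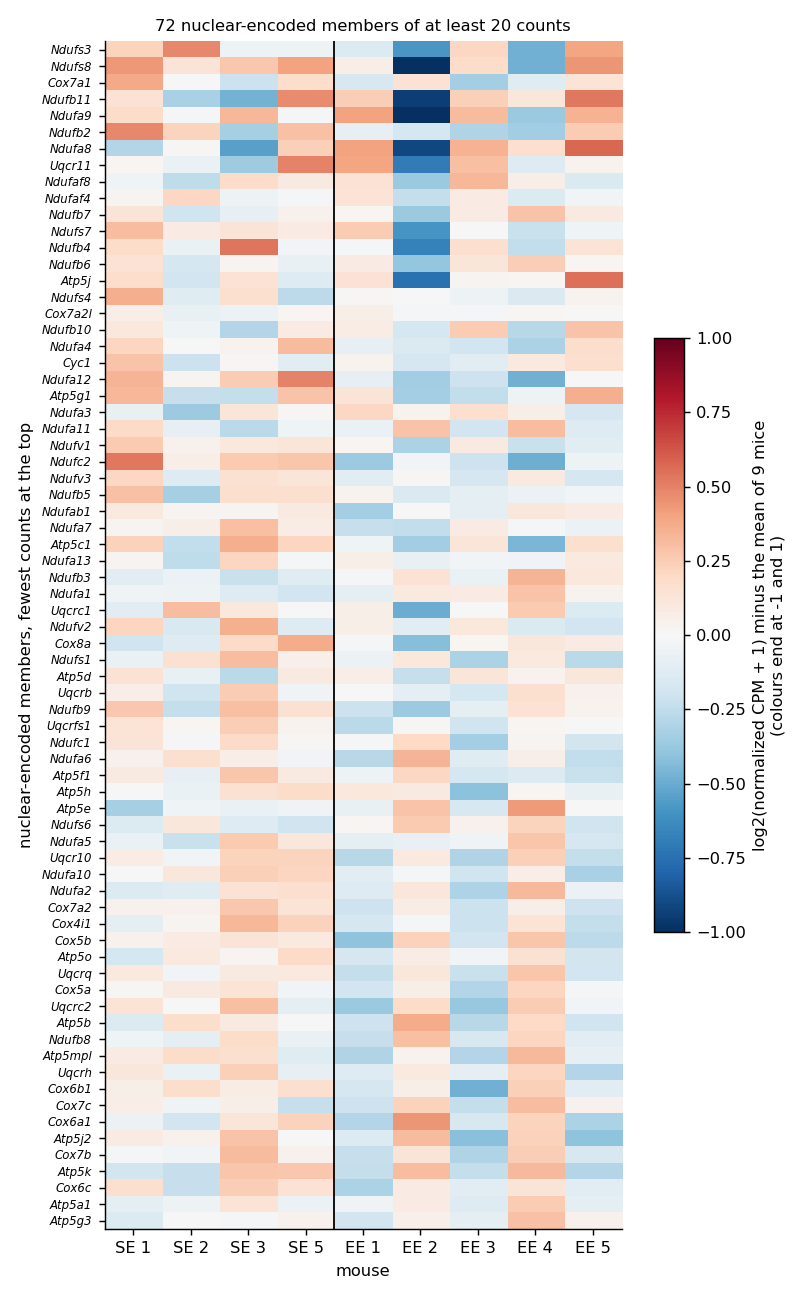
Log2(normalized CPM + 1) minus the mean over 9 mice for 72 of the 73 nuclear-encoded members with a mean of at least 20 counts (rows, fewest counts at the top) in each mouse (columns). WT_EE mouse 2 is blue in the upper rows, such as Ndufs8 and Ndufa9, and red in the lower rows, such as Atp5b, while WT_EE mice 1, 3 and 5 are pale blue in the lower rows.

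Of the mitochondrially encoded members, 12 had a count and were tested. The 6 most counted, mt-Nd1, mt-Nd2, mt-Nd4, mt-Nd5, mt-Cytb and mt-Co1, had means of 195 to 284 counts. mt-Cytb, the cytochrome b of complex III, led them with 279, 273, 229 and 287 counts in WT_SE and 296, 293, 281, 316 and 300 counts in WT_EE. Summed over the 6 genes, counts were 1224 to 1364 in WT_SE and 1318 to 1448 in WT_EE, and their slope on the library total was 0.17 on the log-log scale. Their share of a library therefore fell as its total rose. All mitochondrially encoded members together made up 0.37%, 0.37%, 0.42% and 0.36% of counts in WT_SE mice 1, 2, 3 and 5 and 0.33%, 0.47%, 0.31%, 0.42% and 0.34% in WT_EE mice 1 to 5. The means were 0.379% ± 0.0279 (SD, n = 4) and 0.375% ± 0.0711 (SD, n = 5), and the highest share in each environment was that of its shallowest library.

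None of these 6 genes passed the test. The log2 fold changes of the complex I subunits were -0.17 for mt-Nd4 (SE 0.161), -0.08 for mt-Nd1 (SE 0.145), -0.04 for mt-Nd2 (SE 0.145) and 0.06 for mt-Nd5 (SE 0.131). Those of mt-Cytb and of mt-Co1, the catalytic subunit of complex IV, were 0.04 (SE 0.142) and -0.04 (SE 0.136). Without WT_EE mice 2 and 4, the alternative chosen after seeing the data, 7 of the 12 were called, or 58.3%. In the same fit 7.6% of all genes were called. The 3 WT_EE libraries kept had 426436 counts or more, against at most 383401 in WT_SE, and depth was not separated from the environment in this fit. The 5 lower ones were mt-Nd4 (log2 fold change -0.51, adjusted p = 0.0591, edgeR with Benjamini-Hochberg adjustment), mt-Nd1 (-0.32), mt-Nd2 (-0.29), mt-Cytb (-0.23) and mt-Co1 (-0.23). Of the rarely counted complex I genes, mt-Nd3 had 9 to 19 counts and a log2 fold change of -0.31 (SE 0.286), mt-Nd4l had 4 to 9 counts and -0.14 (SE 0.409), and mt-Nd6, read from the other strand, had 5 to 13 counts and 0.17 (SE 0.372).

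mt-Co3 and mt-Atp6 were the 2 mitochondrially encoded members with an unadjusted p under 0.05, and both were higher in WT_EE, where 4.31% of all genes tested were called as higher. mt-Co3, a core subunit of complex IV, had 2, 2, 4 and 0 counts in WT_SE and 11, 10, 4, 9 and 14 counts in WT_EE, and 3 of the 4 WT_SE mice were at or under the floor of 3 counts. Its log2 fold change was 2.05 (SE 0.551, edgeR p = 0.00065, adjusted p = 0.184), with an exact permutation p of 0.0238 for the normalized CPM. mt-Atp6, the subunit of complex V through which protons pass, had 2, 10, 2 and 1 counts in WT_SE and 16, 13, 10, 7 and 15 counts in WT_EE, with a log2 fold change of 1.52 (SE 0.455, edgeR p = 0.00191, adjusted p = 0.241) and an exact permutation p of 0.0476. Here too 3 of the 4 WT_SE mice were at or under the floor. The environments overlapped for both genes. In CPM, WT_EE mouse 3 lay below WT_SE mouse 3 for mt-Co3, and WT_EE mice 3 and 4 lay below WT_SE mouse 2 for mt-Atp6. The call of mt-Atp6 was lost within the 7 libraries of one name ending, where its log2 fold change was 1.04, and with the name ending as a covariate (1.02). Without WT_SE mouse 2, the WT_SE mouse with 10 counts, it was 2.62 (edgeR adjusted p = 0.0191).

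These counts were a small part of the counts on this sequence, since chromosome 1 carries a copy of this stretch of the mitochondrial genome. From 24612407 to 24616197 on its minus strand, GRCm38 lists 6 pseudogenes in the same order as mt-Co1, mt-Co2, mt-Atp6, mt-Co3, mt-Nd3 and mt-Nd4l. Gm28437 is identical to mt-Co3 over 783 of its 784 bases, Gm10925 to mt-Atp6 over 678 of 681, Gm28661 to mt-Co2 over 681 of 684 and Gm10222 to mt-Nd4l over 294 of 297. Gm28438 matches mt-Nd3 with 1 mismatch in 345 bases, and Gm29216 matches the end of mt-Co1 with 6 mismatches in 492. The ends of the 2 called genes and of their copies show how little sequence tells them apart. The capitals mark the bases of the mitochondrial gene that lie beyond the copy, at chrM:8578-8607 for mt-Atp6 and chrM:9361-9390 for mt-Co3, both on the plus strand of GRCm38. The copies end at chr1:24613974-24614000 (Gm10925) and chr1:24613189-24613217 (Gm28437), both on the minus strand.
mt-Atp6: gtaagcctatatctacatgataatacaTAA
Gm10925: gtaagcctatatctacatgataataca
mt-Co3: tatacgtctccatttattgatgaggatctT
Gm28437: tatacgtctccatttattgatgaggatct

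The copies of mt-Co3, mt-Atp6 and mt-Co2 held far more counts than the mitochondrial genes. This did not hold for every copy. Gm29216 had 21 to 47 counts against 177 to 221 for mt-Co1, and Gm10222 had 1 to 7 against 4 to 9 for mt-Nd4l. Gm28438 had 16 to 34 counts against 9 to 19 for mt-Nd3. Gm28437 had 92, 94, 83 and 102 counts in WT_SE and 105, 97, 94, 93 and 86 counts in WT_EE, with a log2 fold change of -0.10 (SE 0.15, edgeR adjusted p = 0.9175). The counts of Gm10925 ran from 76 to 104 in WT_SE and from 80 to 95 in WT_EE, with a log2 fold change of -0.10 (SE 0.154, edgeR adjusted p = 0.918). Those of Gm28661 ran from 58 to 78 and from 65 to 90, while mt-Co2 itself had 0 to 3 counts in every mouse. Added to its copy, mt-Co3 had 94, 96, 87 and 102 counts in WT_SE and 116, 107, 98, 102 and 100 in WT_EE. The sum averaged 271 ± 20.6 CPM in the 4 WT_SE mice and 277 ± 66.0 CPM in the 5 WT_EE mice (± SD). For mt-Atp6 with its copy the averages were 260.1 ± 26.6 CPM and 268 ± 63.2 CPM. Once added, neither difference exceeded the SD within WT_EE. The copies alone had SDs of 59.8 CPM (Gm28437) and 59.0 CPM (Gm10925) in WT_EE. The sums therefore cannot show whether the few counts of the mitochondrial genes differed. The fold changes of mt-Co3 and mt-Atp6 describe reads placed on the mitochondrial gene and not on its copy. How the counting chose between them was not tested.

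**Figure D5:**
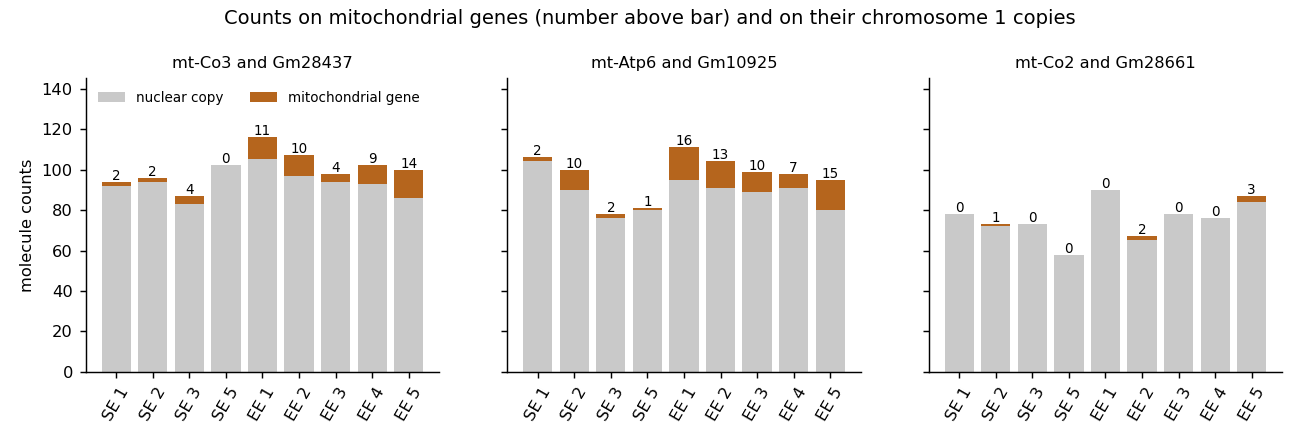
Molecule counts (vertical axis) in each mouse for mt-Co3, mt-Atp6 and mt-Co2 (brown, with the count printed above the bar) stacked on those of their chromosome 1 copies (grey). The grey part makes up most of each bar, and the full bars for mt-Co3 reach 87 to 102 counts in WT_SE and 98 to 116 counts in WT_EE.

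Many nuclear genes of the chain are known targets of NRF1, of ETS-family factors such as GABPA and of YY1, so the 300 bases around the start (250 before and 50 after) were searched in the RefSeq promoters of GRCm38.p6, which matched 71 of the 91 nuclear-encoded members. Exact letters were counted on either strand, with no allowance for overlap between motifs. The NRF1 letters GCATGCGC were found in 11 of 71 members, or 15.5%, against 3.05% of all 27025 symbols with a promoter. A longer form with 2 more bases was searched first and found in 7 members (9.86% against 1.07%). The ETS letters CCGGAAG were found in 16 members (22.5% against 9.93%) and the YY1 letters AAGATGGC in 10 (14.1% against 3.19%). The letters TCAAGGTCA of estrogen-related receptors were found in 1 member (1.41% against 0.47%). Among the 11756 symbols whose genes were tested, the shares were 5.31%, 17.9%, 4.72% and 0.31%. The members' share was 5.08 times that of all symbols for NRF1, the highest of the 4 motifs, but 2.92 times that of the tested symbols. The latter ratio was 2.98 for YY1 and 4.60 for the estrogen-related receptors, where it rests on 1 member and gives no ranking. The NRF1 window is shown for the most counted member of each complex that has it, read along the strand of the gene. The capitals mark the 8 letters, or their reverse complement in Uqcrc1.
Ndufa6: tccgcggtagaGCATGCGCattgcagagcc
Uqcrc1: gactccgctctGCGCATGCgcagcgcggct
Cox6a1: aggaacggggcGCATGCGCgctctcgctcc
Atp5k: ttcactgcggcGCATGCGCctttctggctt
They lie at chr15:82354356-82354385 for Ndufa6, chr5:115349100-115349129 for Cox6a1 and chr5:108434429-108434458 for Atp5k, on the minus strand, and at chr9:108936667-108936696 on the plus strand for Uqcrc1. The 11 genes come from complexes I, III, IV and V. Their median log2 fold change was -0.06, and that of the 58 tested members whose promoter lacks these letters was -0.11. Of the called members, Ndufaf1 had the ETS letters, and Ndufc2 and Ndufa12 had none of the 4 motifs.

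The other genes of mitochondrial energy metabolism were taken from lists. Of the 4 subunits of complex II, which feeds electrons from succinate to ubiquinone and was not part of the rule, 1 was called. Sdhd, its cytochrome b anchor, had 33, 55, 5 and 36 counts in WT_SE and 101, 73, 76, 67 and 98 counts in WT_EE, and the environments did not overlap. Its level averaged 88.7 ± 56.0 CPM in the 4 WT_SE mice against 214.5 ± 32.2 CPM in the 5 WT_EE mice (± SD), with a log2 fold change of 1.23 (SE 0.231, adjusted p = 0.0249, edgeR with Benjamini-Hochberg adjustment), and was 1 of the 7 genes of the whole table with an adjusted p under 0.05. WT_SE mouse 3 stood apart with 5 counts, and without it the log2 fold change was 0.93 (adjusted p = 0.144). The adjusted p was above 0.05 under 12 of 25 alternatives, although the unadjusted p stayed under 0.05 in all 25. Among the 12 were the fits without WT_SE mouse 1 (0.0933), WT_EE mouse 5 (0.0763) or WT_EE mice 2 and 4 (0.0591), stricter filters (0.153 and 0.1825), limma-voom (0.147), the newer quasi-likelihood form (0.1485) and DESeq2 (0.929). Within the 7 libraries of one name ending the log2 fold change was 0.77 (adjusted p = 0.791). The other 3 complex II subunits had negative log2 fold changes and no call.

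None of 6 other electron donors and carriers was called. Of 32 assembly factors outside the rule that passed the filter, 2 were called, or 6.25% against 7.65% of all genes, both higher, with a median log2 fold change of 0.06. Lyrm7, which delivers the Rieske subunit to complex III, reached at most 2 counts in any WT_SE mouse, and its WT_EE counts lay between 3 and 9 (edgeR adjusted p = 0.595). Every WT_SE mouse and 3 of the 5 WT_EE mice were at or under the floor of 3 counts, so no fold is given. Ecsit, a complex I assembly factor, averaged 43.1 ± 10.1 CPM in WT_SE and 60.9 ± 9.92 CPM in WT_EE (± SD; log2 fold change 0.51, edgeR adjusted p = 0.635). Of 13 genes of the tricarboxylic acid cycle, Cs, the citrate synthase, was higher (log2 fold change 0.31, edgeR adjusted p = 0.648) and Suclg1, a subunit of succinate-CoA ligase, was lower (-0.34, adjusted p = 0.486), with no overlap between the environments for Suclg1. Of 18 genes of mitochondrial biogenesis and genome expression, Ssbp1, which coats single-stranded mitochondrial DNA, was higher (log2 fold change 0.65, edgeR adjusted p = 0.499) and Ppargc1a, the coactivator PGC-1α, was lower (-0.48, adjusted p = 0.603). These 6 genes had an unadjusted p under 0.05, and none an adjusted p under 0.05. The environments overlapped for Cs, Ecsit, Ssbp1 and Ppargc1a, with exact permutation p-values of 0.0873, 0.0397, 0.0714 and 0.0794. Those of Lyrm7 did not overlap, nor did those of Cox19, which was higher but not called. Of all genes tested, 1.38% lay wholly higher and 1.2% wholly lower in WT_EE. Over these lists 5 genes were called as higher and 2 as lower of 73 tested. That is 9.59% called against 7.65% of all genes, with 6.85% higher against 4.31% and 2.74% lower against 3.34%.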

How the data were processed

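Colon RNA of 9 wild-type mice was measured, 4 of WT_SE and 5 of WT_EE, grouped by the condition in the labels. The authors deposited whole-number molecule counts per gene, not normalized. The submitters' processing notes name fastp 0.20.0, STAR 2.7.0f, featureCounts 1.6.0, UMI-tools and GRCm38.p6. How reads that fit several genes were treated is not given in the sources used here. Genes were paired with GENCODE mouse release 21.

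Genes reaching 4 CPM in any library entered the fit (17441 genes), in which edgeR 4.0.16 in R 4.3.3 fitted TMM-normalized counts with the quasi-likelihood F test and the environment as its term, with Benjamini-Hochberg adjustment over all genes. Unadjusted p under 0.05 was also counted, since the study names that limit and no adjustment. For single genes, an exact permutation test (two-sided, 126 splits, numpy 2.4.6) was run on normalized CPM. The fit was tested on simulated data. The floor of 3 counts covers counting error only. The chi-square per degree of freedom between libraries of one environment was at least 1.19, so no library appeared to be deposited more than once. Alternatives were other filters, normalizations and tests (DESeq2 1.42.0, limma 3.58.1), the mouse number as a block, the name ending, and each mouse left out. The library total as a covariate, the fits without WT_SE mouse 3 and WT_EE mouse 2 or without WT_EE mice 2 and 4, and the newer quasi-likelihood form were added after seeing the data.

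Members and lists were chosen with earlier results of these data known. Named with values are all mitochondrially encoded members, every member with an unadjusted p under 0.05 or environments that do not overlap, the most counted member and the extreme log2 fold changes of each complex, the tissue-type isoforms with their ubiquitous forms, the complex I assembly factors, and from the other lists the genes with an unadjusted p under 0.05. Ndufa10, Ndufs5, Cox7a2l, Atp5b, Atp5g1, Atp5g2, the catalytic subunits named and the members named in the fit without 2 mice were chosen after their values were seen. The values of 1 member are not reported here. The NRF1 letters were shortened to 8 after the longer search was seen. The alternatives of single genes were computed for the called members and Sdhd.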

Additional observations from a re-analysis of the deposited data

Results flagged for a closer look

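In 86 groups of 4 or 5 mice examined for a mouse far from the others (Dixon's test at 95%), 5 were found, where chance alone gives about 1 in 20, or 4.3. The mitochondrially encoded share of counts of WT_SE mouse 3 was 0.4206%, against 0.3618% to 0.3684% in the other 3 WT_SE mice, and this is the shallowest WT_SE library. mt-Atp6 had 27.85 normalized CPM in WT_SE mouse 2, from 10 counts, against 2.73 to 6.76 in the other WT_SE mice. Cox8a had 174 normalized CPM in WT_EE mouse 2, against 231 to 254 in the other WT_EE mice. The remaining cases were single counts. mt-Co2 had 2.79 normalized CPM in WT_SE mouse 2 and Cox8b had 2.31 in WT_EE mouse 5, each from 1 count, with 0 in the other mice of the group.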

How the results depend on the processing

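The number of nuclear-encoded members with an unadjusted p under 0.05 was 4, and stayed within 3 to 6 under 22 of 25 alternatives. It was 8 without WT_EE mouse 4, and 3 to 8 over all mice left out in turn. With the log2 library total as a covariate it was 12, and without WT_EE mice 2 and 4 it was 22. The number of mitochondrially encoded members called was 2. It was 1 with edgeR's own filter, which removed mt-Co3, 1 with the name ending as a covariate, 1 within the 7 libraries of one ending and 7 without WT_EE mice 2 and 4, and 2 to 3 with each mouse left out. The cause of the other changes was not tested. The medians and both shares of counts moved by less than 1 SD between mice under each alternative. The median log2 fold change ranged from -0.15 to -0.06 for nuclear-encoded and from -0.23 to 0.12 for mitochondrially encoded members, so the latter had no fixed sign.

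Over all alternatives run, no called member changed sign. mt-Co3 had adjusted p-values of 0.027 to 0.867 and mt-Atp6 of 0.0159 to 0.9999. No mouse lived in both environments, and the correlations of the deviations of mice with equal numbers were -0.02, 0.05, 0.11 and 0.13, not all above 0.1. With the replicate block, 6 nuclear-encoded and 2 mitochondrially encoded members were called, and mt-Atp6 had an adjusted p of 0.0159. Among the called members, depth limits mt-Co3, mt-Atp6, Ndufaf1 and Ndufaf6 most, with means of 5.67 to 8.44 counts per library.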
